A study of Arabidopsis thaliana with 96 samples.

Results

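Small RNA reads over 2 regulatory regions of the flower gene AGAMOUS (AG, AT4G18960) were examined in Col flowers of Arabidopsis thaliana that carried an AGP//AGe, Ctr//AGe or AGp cassette. The libraries were chosen by their titles and number 10 of the 96 libraries of the series. Col is the Columbia accession. Flowers with AGP//AGe were classed as sMf (3 libraries) or rMf (3 libraries), flowers with Ctr//AGe as Wt (3 libraries), and the flowers with AGp as Sterile (1 library, so that it is described and not tested). What AGP, Ctr, sMf and rMf stand for is not written out in the labels, and these names are used as given. The cassettes were brought in by transformation, and each library held RNA of young flowers pooled over 5 to 10 lines that showed the same phenotype. For all 10 libraries the plants were 4 to 5 weeks old and grew under 16 h of light and 8 h of dark. All 10 belong to set A, for which the NEXTflex small RNA kit was used, and set A holds no Col flowers without a cassette. The other 18 libraries of set A came from the hosts M318 and M317, whose names are also used as given. They were Wt flowers without a named cassette, and sMf and rMf flowers with AGe. These libraries entered the fits over set A and the comparison of flower classes between lines.

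AG encodes a MADS-box transcription factor that specifies stamens and carpels and ends the growth of the floral meristem. Its large intron holds an enhancer through which the transcription factors LEAFY (LFY) and WUSCHEL (WUS) activate AG in young flowers. Small interfering RNAs are cut from double-stranded RNA, and in RNA-directed DNA methylation they guide methyl groups to matching DNA, in the CG, CHG and CHH contexts (H is any base but G). Methylation of a promoter or enhancer by this route can silence the gene. Transgene copies and inverted repeats of regulatory DNA are known sources of such small RNAs in plants.

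The enhancer region, AGe, was chr4:10384147-10387145 of TAIR10 (2999 bases), and the promoter region, AGp, was chr4:10380701-10382800 (2100 bases). AG lies on the plus strand. AGe began 1291 bases and ended 4289 bases downstream of the annotated AG start. It spanned the whole large intron of the 4 annotated transcripts, with the 90 bases of exon 3 in 3 of them. AGp ended 56 bases upstream of the AG start. Between the regions lay 1346 bases that were not counted. No other gene was annotated in either region. Both were poor in G and C, at 28.6% each against 36.2% over chromosome 4. Counted on both strands, AGe held 20.0 CG, 24.3 CHG and 241 CHH sites per 1000 bases, and AGp held 13.3, 24.8 and 247. Chromosome 4 as a whole held 47.3 CG, 51.5 CHG and 263 CHH sites per 1000 bases, so both regions had fewer CG and CHG sites than the chromosome and nearly as many CHH sites.

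**Figure D1:**
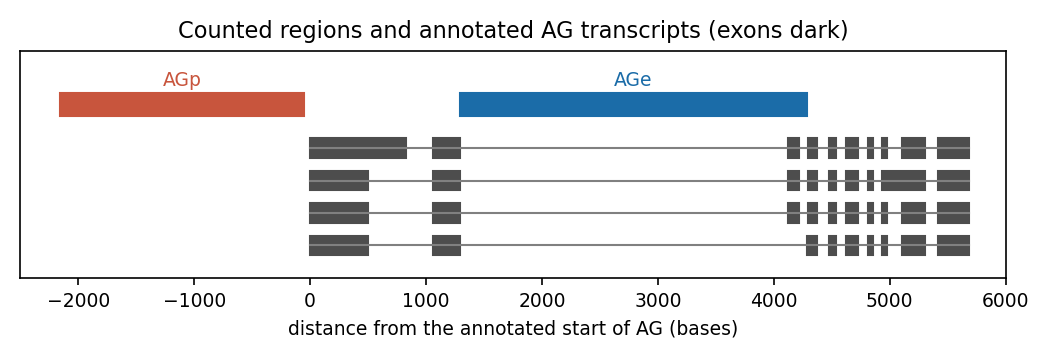
Positions of AGp and AGe (coloured bars) and of the exons of the 4 annotated AG transcripts (dark boxes, introns as lines), in bases from the annotated AG start. AGp lies upstream of the start, and AGe spans the large intron of every transcript drawn.

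A stretch of 240 bases of each region shows what DNA the reads match, in RefSeq's copy of the genome and on the plus strand. The first is the stretch of AGe with the most LFY and WUS letters, chr4:10386520-10386759, and the second is the end of AGp nearest to the gene, chr4:10382561-10382800.
AGe: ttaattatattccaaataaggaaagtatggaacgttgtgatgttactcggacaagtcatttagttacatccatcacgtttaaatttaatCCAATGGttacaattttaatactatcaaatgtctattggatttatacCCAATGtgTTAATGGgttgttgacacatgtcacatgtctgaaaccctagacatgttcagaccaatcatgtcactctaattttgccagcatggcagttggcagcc
AGp: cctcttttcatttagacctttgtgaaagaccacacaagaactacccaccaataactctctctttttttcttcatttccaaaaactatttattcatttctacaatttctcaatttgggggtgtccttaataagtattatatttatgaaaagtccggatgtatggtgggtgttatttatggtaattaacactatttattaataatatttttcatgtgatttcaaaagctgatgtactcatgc
Capitals mark the letters CCANTG, which LFY recognises, and TTAATGG, which WUS recognises, searched on both strands. The AGe stretch held 3 matches of CCANTG, a pair of which overlap on opposite strands, and 1 of TTAATGG. Of all genome windows of 240 bases, 26.7% held at least 1 match of CCANTG and 4.05% at least 1 of TTAATGG. The share of windows with 3 or more matches of CCANTG was not counted. Since the AGe stretch was picked for its matches, these shares cannot test whether it is rich in them. The AGp stretch held no match. The whole of AGe held 6 matches of CCANTG and 1 of TTAATGG, and 32.8% and 40.6% of genome windows of its length held as many or more. The whole of AGp held 1 match of each, and 91.1% and 30.6% of genome windows of its length held as many or more. A match of letters is a description and does not show a bound site.

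The 10 libraries held between 8864600 and 20674421 mapped reads, and between 94.6% and 98.3% of their reads mapped. Levels are given as reads per 1000000 mapped reads (RPM) and as reads per 1000000 reads aligned once, since the share of reads with several places in the genome differs between groups. A region with 0 reads could still stand at up to 3 reads, which is 0.145 RPM in the deepest library and 0.338 RPM in the shallowest. Over 5 read classes, all 9 pairs of libraries of a group differed by more than sampling noise, with a chi-square of at least 184, and each library was counted as a sample of its own.

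Flowers with AGP//AGe held many small RNA reads over both regions, whereas flowers with Ctr//AGe held far fewer over AGe and almost none over AGp. Of the 12 tests made on these groups, 4 measures in each of 3 comparisons, 10 passed at an adjusted p below 0.05 (83.3%). These were 2 of the 4 between sMf and rMf flowers (50%) and 4 of 4 for each class of AGP//AGe flowers against Ctr//AGe (100%). In sMf flowers with AGP//AGe, AGe stood at 3736, 3861 and 3784 RPM in replicates 1, 2 and 3. In rMf flowers it stood at 3395, 3201 and 3091 RPM. The lowest sMf library lay above the highest rMf library. In Ctr//AGe flowers AGe stood at 479, 486 and 516 RPM, below every AGP//AGe library.

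AGp, the promoter region, stood at 3253, 3298 and 3260 RPM in sMf flowers and at 2511, 2412 and 2296 RPM in rMf flowers with AGP//AGe, again without overlap. In Ctr//AGe flowers the 3 libraries held 6, 2 and 7 AGp reads, or 0.403, 0.150 and 0.420 RPM. Together these 15 reads came to 0.334 RPM, with an exact Poisson 95% interval of 0.187 to 0.551 that covers counting error only. The table counts a transgene copy and the endogenous copy at the same coordinates, so their reads cannot be told apart.

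**Figure D2:**
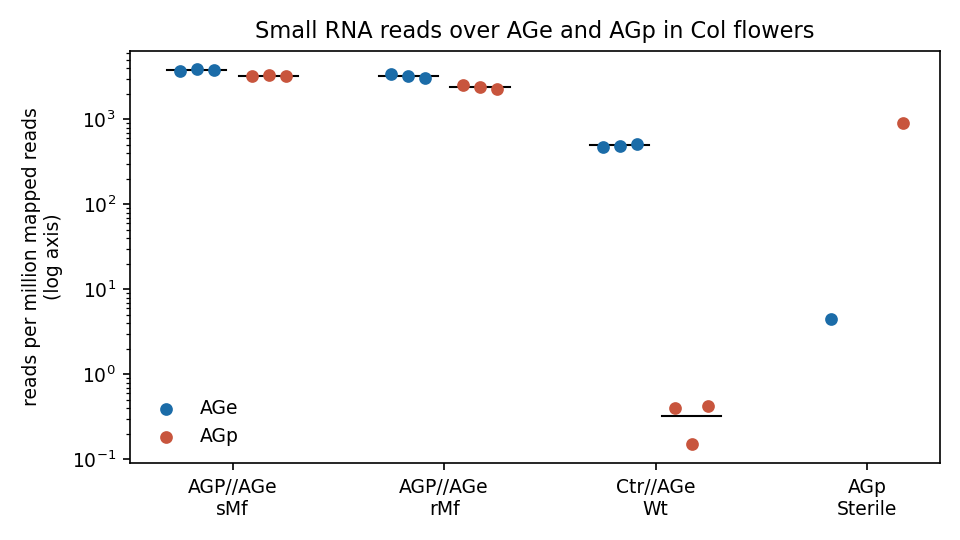
AGe (blue) and AGp (red) in each library in RPM, on a log axis, for the 4 groups; black lines are means of 3 libraries. AGp lies at or above 2296 RPM with AGP//AGe, at or below 0.420 RPM with Ctr//AGe and at 904 RPM in the single AGp library.

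The first comparison asked whether the flower classes with the same cassette differ. AGe rose in sMf over rMf flowers, from 3229 ± 154 to 3794 ± 63.2 RPM (SD, n = 3 each). The ratio was 1.17 with a 95% interval of 1.07 to 1.29 (log2 change 0.23 ± 0.062 SE, edgeR quasi-likelihood test, adjusted p = 0.00165). Per 1000000 reads aligned once, AGe stood at 9625 ± 57.0 in sMf and 8245 ± 80.9 in rMf flowers. The ratio was 1.17 on that scale too (edgeR adjusted p = 4.92e-05).

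AGp differed by more than AGe, and whether it passed the test turned on which libraries set the spread. It stood at 3270 ± 24.3 RPM in sMf and 2406 ± 107 RPM in rMf flowers (n = 3 each), a ratio of 1.36. Per 1000000 reads aligned once it stood at 8298 ± 30.6 and 6144 ± 47.8, a ratio of 1.35. With the spread shared over the 28 libraries of set A the difference did not pass (log2 change 0.44 ± 0.58 SE, edgeR adjusted p = 0.5), and the 95% interval of the ratio was 0.582 to 3.17. A single library of another line, M317_AGe rMf replicate 3, decided this. It held 9.68 RPM of AGp, against 0.431 and 0.674 RPM in the other libraries of its group. M317 flowers without a named cassette held 7.32 to 10.8 RPM. Without M317_AGe rMf replicate 3, in a fit chosen after seeing the data, the log2 interval was 0.35 to 0.54 and the edgeR adjusted p was 1.51e-10. With only the 9 Col libraries of the 3 replicated groups in the fit the edgeR adjusted p was 3.07e-07. The exact two-sided permutation test gives p = 0.1 for each measure whose 3 and 3 libraries do not overlap, the smallest it can give.

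**Figure D3:**
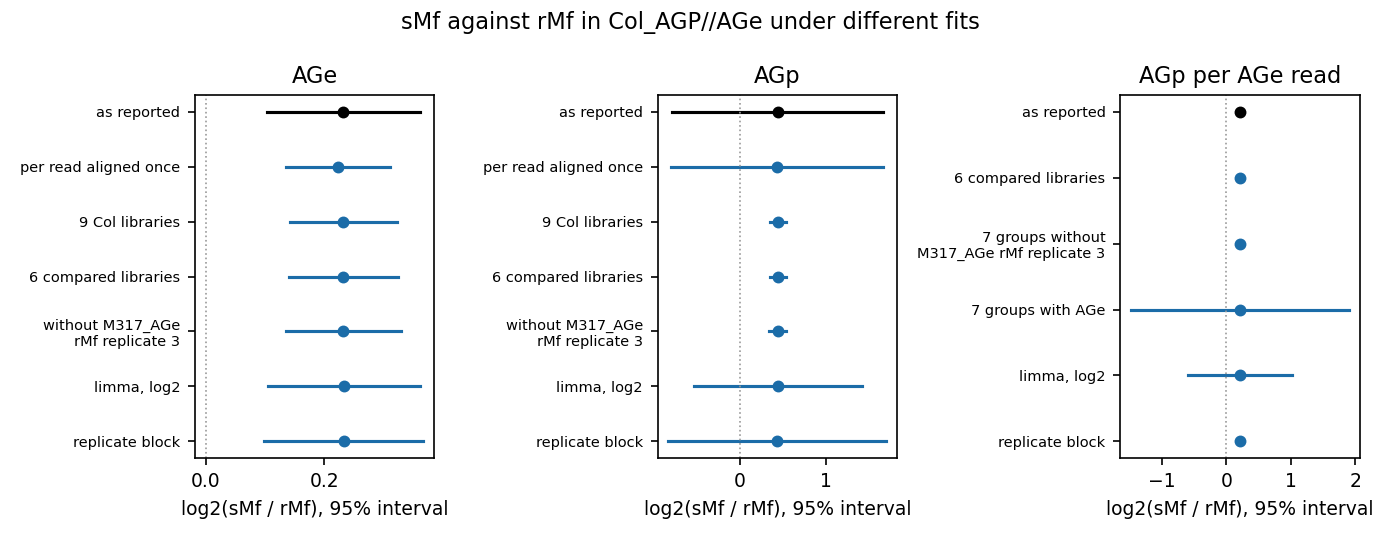
Difference between sMf and rMf flowers with AGP//AGe for AGe, AGp and AGp per AGe read, as log2 ratio with its 95% interval, in the fit reported (black) and in others (blue); intervals narrower than a point are hidden by it. The log2 ratio stays near 0.23 for AGe, 0.44 for AGp and 0.21 for AGp per AGe read. The interval of AGp crosses 0 in the fits that hold M317_AGe rMf replicate 3 and lies above 0 in those without it. The interval of AGp per AGe read crosses 0 by limma, in a fit without that library, and in the fit of all 7 groups with AGe. Fits that leave out only that library were chosen after seeing the data.

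The balance of the regions varied little within a class and separated the classes. AGp reads per AGe read stood at 0.871, 0.854 and 0.861 in sMf replicates 1, 2 and 3. In rMf flowers they stood at 0.740, 0.753 and 0.743, below every sMf library. Libraries of a class held the regions in nearly equal proportion, and in 5 of the 6 pairs of AGP//AGe libraries of a class a chi-square test of the AGe and AGp reads gave p above 0.05 (smallest p = 0.0211, sMf replicates 1 and 2). The mean was 0.862 ± 0.0083 in sMf and 0.745 ± 0.00718 in rMf flowers (n = 3 each). AGp per AGe read rose in sMf flowers, by a ratio of 1.16 with a 95% interval of 1.13 to 1.18 (edgeR with AGe reads as library size, 9 Col libraries, adjusted p = 3.60e-06). Library size cancels out of this measure, but how reads with several hits were counted within each region does not. It did not pass by limma on log2 values (adjusted p = 0.598) or with the 7 groups of set A that carry an AGe cassette in the fit (edgeR adjusted p = 0.812, and 6.71e-10 without M317_AGe rMf replicate 3). The fit without that library was chosen after seeing the data.

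Per length, AGp stood above AGe in 6 of 6 AGP//AGe libraries. In sMf flowers AGp came to 1557 ± 11.6 RPM per 1000 bases of region and AGe to 1265 ± 21.1 (n = 3), a ratio of 1.23 ± 0.0118. In rMf flowers these levels were 1146 ± 51.1 and 1077 ± 51.4, a ratio of 1.06 ± 0.0103. How much of each region the cassettes carry is not given in the labels, so a level per length is over the counted region and not over the transgene.

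**Figure D4:**
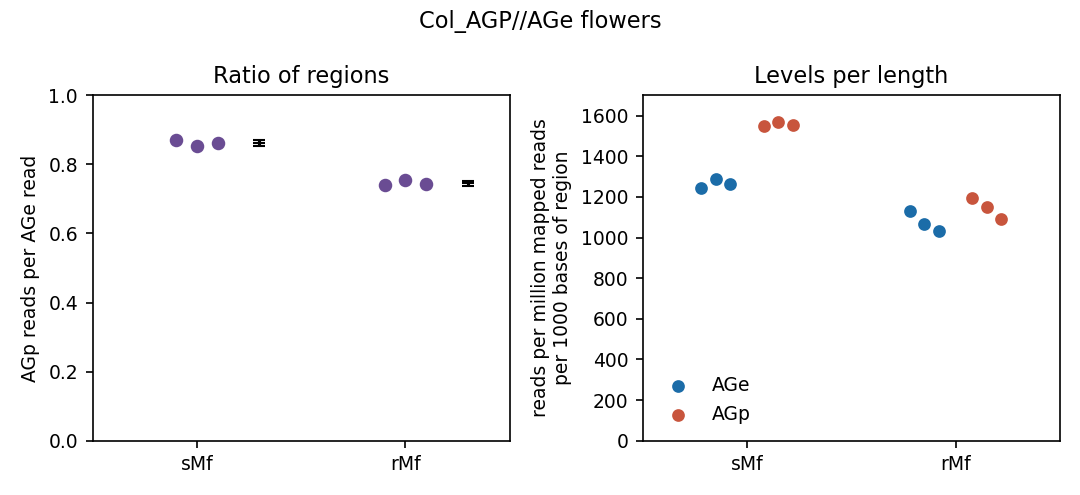
AGp reads per AGe read (left, with mean ± SD beside the points) and both levels in RPM per 1000 bases (right) in each library of Col_AGP//AGe flowers. The sMf libraries lie between 0.854 and 0.871 and the rMf libraries between 0.740 and 0.753, and AGp lies above AGe per length in both classes.

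The second comparison set AGP//AGe against Ctr//AGe. Flower class and cassette cannot be told apart here, since the Ctr//AGe flowers of set A were Wt. AGe rose 7.68-fold in sMf flowers (95% interval 7.02 to 8.41) and 6.54-fold in rMf flowers (5.98 to 7.15) over the 494 ± 20.0 RPM of Ctr//AGe (n = 3 each; edgeR adjusted p = 2.89e-19 and 5.54e-19). Per 1000000 reads aligned once, Ctr//AGe flowers held 1013 ± 24.6 AGe reads, and the ratios of means were 9.50 and 8.14. On either scale the libraries did not overlap.

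For AGp the fitted ratio to Ctr//AGe was 9876 in sMf flowers (95% interval 2985 to 32679) and 7267 in rMf flowers (2196 to 24048), with edgeR adjusted p of 1.49e-10 and 1.80e-10. These ratios rest on the 15 AGp reads of Ctr//AGe, and by limma on log2(RPM + 1) the log2 changes were 11.28 and 10.83 in place of 13.27 and 12.83. Ctr//AGe lay below the Wt flowers of M318 and M317 without a named cassette, which held 5.06 to 9.04 and 7.32 to 10.8 RPM of AGp. The ratios are therefore to Ctr//AGe and not to flowers without a cassette. Ctr//AGe flowers held 0.675 AGp reads per 1000 AGe reads, counted over 22206 AGe reads. AGp per AGe read was 1276-fold higher in sMf flowers (95% interval 714 to 2281) and 1103-fold higher in rMf flowers (617 to 1973) by the edgeR fit (adjusted p = 1.01e-11 and 1.10e-11). The groups with the 2 cassettes differed far more over AGp than over AGe.

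Reads aligned more than once, which come from repeats and other sequences with several copies, took a larger share of the mapped reads with AGP//AGe than with Ctr//AGe. The share was 61.0%, 60.1% and 60.7% in sMf flowers and 59.3%, 61.0% and 62.3% in rMf flowers. In Ctr//AGe flowers it was 51.5%, 52.2% and 50.1%, below every AGP//AGe library. The rise was 9.32 percentage points for sMf flowers (ratio 1.18, 95% interval 1.14 to 1.23, edgeR adjusted p = 2.48e-08) and 9.57 points for rMf flowers (ratio 1.19, 1.14 to 1.23, adjusted p = 1.95e-08).

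Between sMf and rMf flowers the libraries overlapped in that share, and no difference was detected (60.6% ± 0.427 and 60.8% ± 1.51, n = 3 each). The ratio was 0.996 with a 95% interval of 0.960 to 1.03 (edgeR adjusted p = 0.812). Per read aligned once, 1.54 ± 0.0274 reads aligned more than once in sMf, 1.56 ± 0.0981 in rMf and 1.05 ± 0.0453 in Ctr//AGe flowers (n = 3 each). On this scale AGP//AGe was 1.46-fold (sMf) and 1.48-fold (rMf) above Ctr//AGe. Wt flowers of the set A hosts without a named cassette, M318 and M317, held shares of 52.2% to 55.4% and 56.5% to 58.1%. Lines of set A with an AGe cassette in these hosts reached the range of AGP//AGe in 3 of 4 groups, so that a high share was not particular to AGP//AGe. It was 59.6% to 60.6% in M318_AGe sMf, 61.2% to 65.6% in M318_AGe rMf and 59.5% to 60.7% in M317_AGe sMf flowers. In M317_AGe rMf flowers it was 56.0% to 57.4%. Between these hosts and their AGe lines, flower class and cassette change together and cannot be told apart. The size, sequence and origin of these reads are not part of the table, and the part of the cassette in the difference was not tested.

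**Figure D5:**
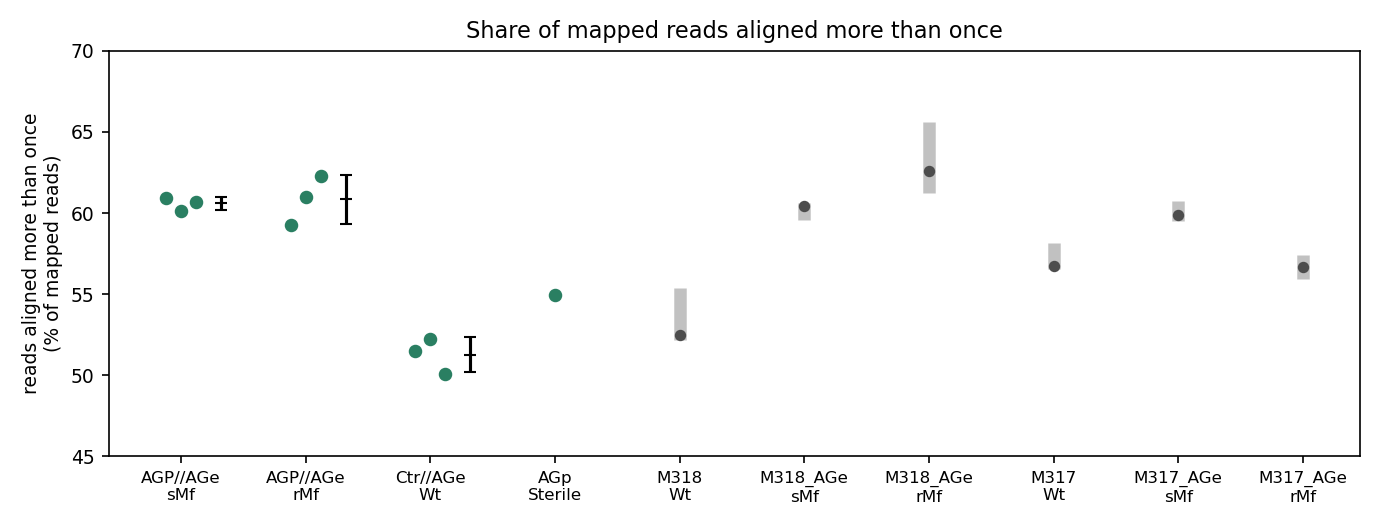
Reads aligned more than once as a percentage of mapped reads in each library (green points, with mean ± SD beside groups of 3), and the median and range of the M318 and M317 hosts and their AGe lines in the same set (grey). The AGP//AGe libraries lie between 59.3% and 62.3%, and the Ctr//AGe libraries between 50.1% and 52.2%, while M318_AGe and M317_AGe sMf flowers overlap AGP//AGe; the vertical axis does not start at 0.

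The single library of Sterile flowers with AGp was the reverse of Ctr//AGe in its regions. It held 12706 AGp reads, or 904 RPM (exact Poisson 95% interval 888 to 920), and 63 AGe reads, or 4.48 RPM (3.44 to 5.73). Both intervals cover counting error only. Its AGp level lay below all 6 AGP//AGe libraries, of which the lowest held 2296 RPM, and above all 3 Ctr//AGe libraries. Per 1000000 reads aligned once it held 2007 AGp reads (1972 to 2042) and 9.95 AGe reads (7.65 to 12.7). AGp came to 202 reads per AGe read, and 55.0% of its mapped reads aligned more than once. With 1 library no spread between samples can be given.

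Levels of Col flowers outside set A are set beside these without a test, since another kit was used there. Col flowers without a named cassette held 10.4 ± 1.69 RPM of AGe in set B (n = 3) and 0.890 to 1.17 RPM in set C, and 4.79 to 7.74 and 0.339 to 0.713 RPM of AGp. Ctr//AGe flowers of class rMf in set C held 1182 to 1202 RPM of AGe and 2.34 to 5.05 RPM of AGp. In these flowers too AGp was a small fraction of AGe. Their share of reads aligned more than once was 58.6% to 62.6%, which overlaps the AGP//AGe flowers of set A and lies above the Ctr//AGe flowers of class Wt. In Wt flowers of Col without a named cassette the share was 54.7% to 56.4% in set B and 48.2% to 49.3% in set C.

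The difference in AGe between flower classes was smaller with AGP//AGe in Col than in the other lines of set A with both classes. In M318_AGe flowers AGe was 1.78-fold and in M317_AGe flowers 1.69-fold higher in sMf than in rMf flowers, against 1.17-fold here. The Col ratio was 0.660 of that in M318_AGe (95% interval 0.581 to 0.750, edgeR adjusted p = 7.00e-06) and 0.694 of that in M317_AGe (0.611 to 0.788, adjusted p = 1.86e-05). Of the 4 tests against these lines, 3 passed (75%). Host and cassette differ together in this comparison. The M318_AGe flowers of class rMf had mapped only 40.7% to 47.3% of their reads, and with levels per total reads the log2 difference from M318_AGe was -1.73 in place of -0.60. For the share of reads aligned more than once the difference from M318_AGe did not pass (edgeR adjusted p = 0.0918), and that from M317_AGe passed (ratio 0.940, adjusted p = 0.0291) but not without any of 4 single libraries.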

How the data were processed

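Small RNA was sequenced from young flowers. The submitters' processing notes name TAIR10 as the build, Bowtie as the aligner and HTSeq 0.13.5 as the counter. How reads were trimmed and selected by size, and how reads with several hits were placed, is not given in the sources used here. For each library the authors deposited read counts in 6 classes (total, aligned once, aligned more than once, mapped, AGe, AGp), named per the file headers. The authors also deposited an alignment rate in percent and RPM for both regions. Adding reads aligned once to those aligned more than once gave the mapped counts, and the deposited RPM were the region's reads divided by mapped reads and multiplied by 1000000. The header names the second region AG promoter or M2, and it is called AGp here.

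The main test was the two-sided quasi-likelihood F test of edgeR 4.0.16, run in R 4.3.3, with the mapped reads of a library as its size. The 28 set A libraries entered 1 fit with a mean per group and a dispersion shared by the regions. Reads aligned more than once had a fit of their own. AGp per AGe read was fitted on 9 Col libraries, with a dispersion of at least 0.0001, since the deviance edgeR computes is inexact below it at these counts. Adjusted p are Benjamini-Hochberg values over the 12 tests of the 3 comparisons, and over 4 for the other lines, with a threshold of 0.05. Ratios of fitted tests come with 95% intervals. The fits of sMf against rMf were tried on 100 simulated tables, in which both regions had the same dispersion in every group. AGp per AGe read had no true difference in these tables, and an unequal spread of AGp between groups was not simulated.

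Every measured feature is named, as the rule for named features was. The members, measures and fits were chosen with earlier results of these data known. Alternatives were other library sizes, other sets of libraries, DESeq2 1.42.0, limma 3.58.1 on log2(RPM + 1) and log2(RPM + 0.1), a filter of 10 reads, a replicate block and leaving out each library. Depth limits the precision of AGp in Ctr//AGe flowers, where few reads were counted. Sequence and annotation came from RefSeq's copy of the genome (TAIR10.1), whose chromosome 4 is 18585056 bases long. Per the labels' protocols each replicate was its own pool of lines. The counts are of reads and not of molecules, so counting intervals cover counting error only.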

Additional observations from a re-analysis of the deposited data

Results flagged for a closer look

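The AGe difference between sMf and rMf flowers differed between Col_AGP//AGe and each of the other lines of set A with both classes. On the log2 scale the Col difference minus the M318_AGe difference was -0.60 and minus the M317_AGe difference -0.53 (edgeR adjusted p = 7.00e-06 and 1.86e-05). For reads aligned more than once the Col difference minus the M317_AGe difference was -0.089 (edgeR adjusted p = 0.0291). The single Sterile library with AGp, which entered no comparison, held 904 RPM of AGp, against 0.150 to 0.420 RPM in Ctr//AGe flowers.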

How the results depend on the processing

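Of 139 values under alternatives other than leaving out a library of the compared groups, 131 kept their direction and their side of the threshold. So did 114 of 120 when each such library was left out. The 139 include those of the filter of 10 reads, which removed no region, so that they could only repeat the main fit. Also among the 139 are the fits without M317_AGe rMf replicate 3, which were chosen after seeing the data. The log2 AGp difference between sMf and rMf flowers (0.44 throughout) did not pass in the fit over set A and passed with only the 9 Col libraries, only the 6 compared libraries, without M318_AGe rMf and M317_AGe rMf, and, in a fit chosen after seeing the data, without M317_AGe rMf replicate 3 (edgeR adjusted p = 3.07e-07, 6.74e-06, 3.69e-10 and 1.51e-10). AGp per AGe read (log2 0.21) did not pass with 7 groups in the fit or by limma (adjusted p = 0.812 and 0.598). The 7-group fit passed without M317_AGe rMf replicate 3, which was also left out after seeing the data (edgeR adjusted p = 6.71e-10). The limma fit shared its spread over the 9 Col libraries, among them those of Ctr//AGe with only 6, 2 and 7 AGp reads. The part of these libraries in the limma result was not tested. With total reads as library size the difference from M318_AGe in reads aligned more than once reversed to -1.07, those M318_AGe rMf libraries being the ones with few mapped reads, and that from M317_AGe fell short at -0.062.

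Without single libraries the log2 difference between sMf and rMf flowers in reads aligned more than once ran from -0.024 to 0.011, the latter without rMf replicate 3. The difference from M318_AGe ran from 0.035 to 0.085 and passed without M318_AGe rMf replicate 1 (adjusted p = 0.0280). That from M317_AGe ran from -0.11 to -0.072 and fell short without sMf replicate 2 or rMf replicate 3 of Col_AGP//AGe, M317_AGe sMf replicate 3 or M317_AGe rMf replicate 2 (adjusted p up to 0.0687). With the replicate number as a replicate block, no call changed: the log2 AGe, AGp and AGp per AGe differences were 0.23, 0.44 and 0.21. The labels do not say that a number marks shared plants, and 2 regions are too few to check it.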
